A study of Mus musculus with 18 samples.

Results

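Respiratory complexes II to V were followed in whole mouse kidneys through 48 protein-coding nuclear genes out of the 45706 genes counted, 30346 of which had at least 1 read in some kidney. The genes were chosen by symbol: 4 of complex II (Sdha to Sdhd), 9 of complex III (Cyc1 and the named Uqcr genes), 18 of complex IV (every symbol that joins Cox4, Cox5, Cox6, Cox7 or Cox8 to a letter) and 17 of complex V (every symbol beginning with Atp5). Symbols are the older ones of the GENCODE vM21 annotation of GRCm38, and 5 pseudogenes with matching symbols were left out. A symbol does not always give a structural subunit: Cox7a2l is better known as a factor that joins complexes into supercomplexes, and Atp5s as a coupling factor.

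The study asked what tubule-derived Cxcl12, a chemokine, and Myc, a transcription factor, do in repair after ischemia. Kidneys of C57BL/6 mice (C57BL/6J in the methods of the study) were taken 12 h after bilateral clamping for 22.5 min, so all 18 kidneys are injured and no uninjured kidney was analysed here. There were 5 Cxcl12 KO and 3 Cxcl12 control kidneys, and 5 Myc KO and 5 Myc control kidneys. KO mice had homozygous floxed alleles of Cxcl12 or of Myc together with Pax8rtTA and TetOCre, a doxycycline-switched Cre that the Pax8 promoter restricts to renal tubules, whereas control mice had the floxed alleles and Pax8rtTA but no TetOCre, and both kinds of mice drank doxycycline. The other cell types of the kidney therefore keep the targeted gene in a KO animal. The labels give neither sex nor age for a sample, and the methods of the study describe male littermates.

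Complex II oxidises succinate and passes the electrons to ubiquinone, complex III hands them from ubiquinol to cytochrome c, complex IV reduces oxygen with them, and complex V, the ATP synthase, makes ATP from the proton gradient that complexes III and IV help to build. Complex II is wholly nuclear-encoded, whereas complexes III, IV and V also hold subunits from mitochondrial DNA, and several complex IV and V subunits exist as isoforms from separate genes. Proximal tubule cells live largely from fatty acid oxidation and are rich in mitochondria, and their respiratory chain is known to be an early target of ischemic injury.

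The kidneys yielded between 12918220 and 29749500 reads assigned to genes. The labelled deletions were read from the targeted genes first: Myc measured 31.0 ± 3.9 CPM (reads per gene scaled to the size of the library) in Myc KO and 94.9 ± 14.5 in the Myc controls (SD, n = 5 each; log2 fold change -1.61, adjusted p = 8.82e-05 by edgeR), and Cxcl12 measured 32.3 ± 6.1 in Cxcl12 KO (n = 5) and 53.5 ± 7.9 in Cxcl12 control kidneys (n = 3; -0.73, adjusted p = 0.0942), with no overlap in either cohort. The 16 proximal tubule markers were all above the low count filter and summed to between 13001 and 23533 CPM per kidney. The kidneys also differed in a technical measure that the labels do not name: 6 of the 18 had under 5% unmapped reads, namely Cxcl12 KO 1 and 2, Myc KO 3 and 5, and Myc control 1 and 3, and no Cxcl12 control was among them. The other kidneys had 12918220 to 18006784 gene reads, whereas these 6 had more, 22437067 to 29749500, so the split coincides with sequencing depth. For the members' medians and the members with values in every kidney, the value without these kidneys is given where they move it by over 1.5 times or turn its sign. It stands beside the value or in the paragraph on the other kidneys. Fold changes of the other members and of the listed partner genes are not given without them.

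The members differed widely in level. On the scale of CPM per kb of exon, averaged over 18 kidneys, the highest were Atp5b (609.8) and Atp5a1 (513), the catalytic beta and the alpha subunit of ATP synthase, followed by the complex IV subunits Cox6a1 (500.3), Cox8a (475), Cox4i1 (348) and Cox6b1 (277). Complex III was led by Uqcr10 (256), a small accessory subunit, and by Uqcrfs1 (236), the Rieske iron-sulfur protein, and complex II by Sdha (158), its flavoprotein, and Sdhd (144), a membrane anchor. At the other end stood the isoforms known from heart, muscle, lung or testis: Cox7a1 (11.3), Cox6b2 (4.77), Cox8b (1.32), Cox6a2 (1.19) and Cox4i2 (0.875). In complex V, Atp5g2 (0.785) and Atp5l (1.06) were as low on this scale. Atp5l has the most exon bases of the members, 6443, and its counts are uncertain, as described below. Cox7b2 and Cox8c had at most 1 read in any kidney and were not tested, and Cox8b, with 0 to 42 reads, passed the filter on low counts only in the comparison of all 18 kidneys.

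**Figure D1:**
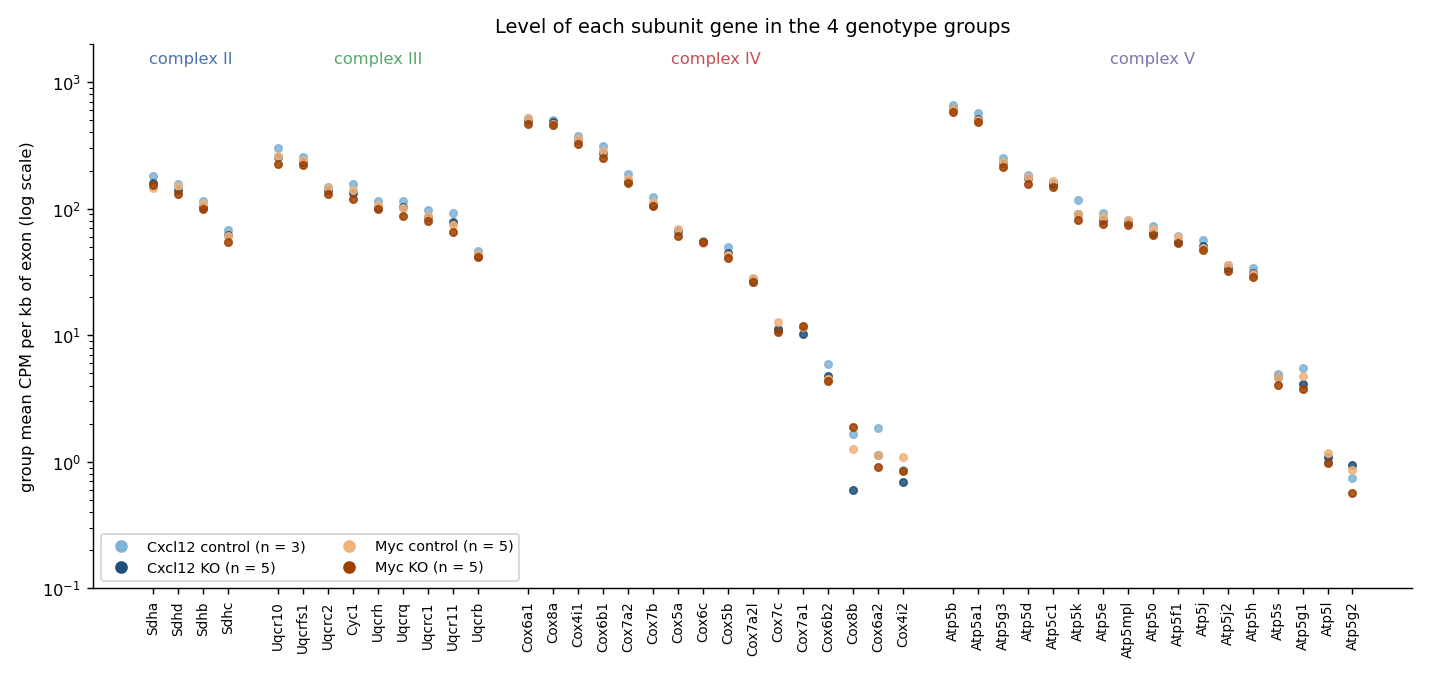
Level of each of the 46 members with a testable count in CPM per kb of exon on a log axis, arranged by complex, with 1 point for the mean of each of the 4 groups (n = 3 or 5). Averaged over the 18 kidneys, the catalytic subunits Atp5b and Atp5a1 lie highest at 609.8 and 513, and the tissue-restricted isoforms of complex IV lie at 11.3 or below.

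For 20 of the 48 members, at least 1 other gene shares a stretch of 100 or more bases at 95% identity or more, and for 14 of these a pseudogene is among them, so reads can be placed elsewhere or lost as multimapping. Atp5l, the g subunit of ATP synthase, shares such a stretch with 11 genes, and Atp5g1, a gene for subunit c, with 19. The libraries were unstranded, with 49.5% to 50.1% of gene reads in the forward column, yet 4 members departed strongly from an even split: Atp5g1 had 91.3% of its reads in the forward column (88.2% to 93.9% per kidney), Atp5l 91.1% to 98.9% per kidney, Cox7c 73.2% to 81.8% and Cox5b 26.7% to 34.1%. All 4 have such near-copies. A share outside 30% to 70% was found for 4 of 45 members with 200 or more reads and for 350 of 15864 genes (2.21%), and the other members lay between 31.9% and 60.5%. The counts of these 4 genes are therefore uncertain, and what skews them was not tested. The 31.9% belonged to Uqcr11 (28.8% to 34.7% per kidney), which shares such a stretch with 2 pseudogenes. Its counts carry a like uncertainty.

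Of the 48 members, 45 stood above the low count filter in each cohort, and no member passed edgeR's test in any comparison. In the Cxcl12 cohort edgeR called 0 of 45 members at an adjusted p under 0.05, where 0.00% of all 15154 genes were called, and 2 of 45 had an unadjusted p under 0.05, against 13.0% of all genes. After Myc loss 0 of 45 members were called against 1.65% of 14936 genes, and 3 of 45 had an unadjusted p under 0.05 against 21.9%. DESeq2 called 1 member in the Cxcl12 cohort, Atp5g1 (adjusted p = 0.0127), where it called 2.49% of all genes, and 0 in the Myc cohort, where it called 9.03%. Nothing in the labels says whether the replicates come from separate litters or surgeries, so the p-values measure the spread between these samples. In bulk RNA, fewer cells of a type and less RNA per cell cannot be told apart.

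The fitted changes nevertheless lay mostly on the same side of 0. In the Cxcl12 cohort 41 of 45 members had a log2 fold change below 0, against 49.8% of all genes, and in the Myc cohort 42 of 45, against 50.1%. The cohorts share no sample, and 38 members were below 0 in both, 3 in the Cxcl12 cohort only, 4 in the Myc cohort only, and 0 were above 0 in both. These are not counts of independent genes. Over pairs of members, the deviations from the group means had a median correlation of 0.70, so a few kidneys can move most members together. The sizes were small: the median member stood at -0.16 in the Cxcl12 cohort and -0.15 in the Myc cohort, beside 0.00083 and -0.00083 for all genes. By complex, the median log2 fold changes of II, III, IV and V were -0.16, -0.19, -0.17 and -0.13 after Cxcl12 loss and -0.15, -0.15, -0.11 and -0.15 after Myc loss. After a correction of the counts for exon length and GC content the complex IV median of the Cxcl12 cohort was -0.000686. With the replicate numbers as a block as well it was 0.11, so its direction depends on these settings. In this cohort KO kidneys 4 and 5 have no control of the same number. The blocked contrast therefore rests on KO kidneys 1 to 3 and the 3 controls. The correction left 31 of 45 members of the Cxcl12 cohort below 0 with a median of -0.076, and 40 of 45 of the Myc cohort with -0.096. Single kidneys weighed on these medians in both directions. The median over all members in the Myc cohort was -0.079 without Myc control 4, -0.088 without Myc KO 3 and -0.22 without Myc control 1. The complex IV median of the Myc cohort was the least settled, at -0.038 without Myc KO 3, -0.055 without Myc control 4, -0.058 without Myc KO 5, -0.067 without Myc control 5 and -0.20 without Myc control 1. Without Myc control 4 the medians of complexes II, III and V of that cohort were -0.076, -0.078 and -0.097, and complex V was at -0.088 without Myc KO 3. Complex IV of the Cxcl12 cohort was at -0.085 without Cxcl12 control 1 and -0.11 without Cxcl12 KO 2, and complex II at -0.11 without Cxcl12 control 3.

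All KO kidneys lay below all controls for 3 of 45 members in the Cxcl12 cohort, namely Cyc1, Uqcrb and Atp5g1, while 4.72% of all genes did so. After Myc loss 0 of 45 members were separated in that way, against 3.92% of all genes. No member had all KO kidneys above all controls in either cohort, against 4.96% and 2.05% of all genes. These shares are near or under the background and set no member apart.

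**Figure D2:**
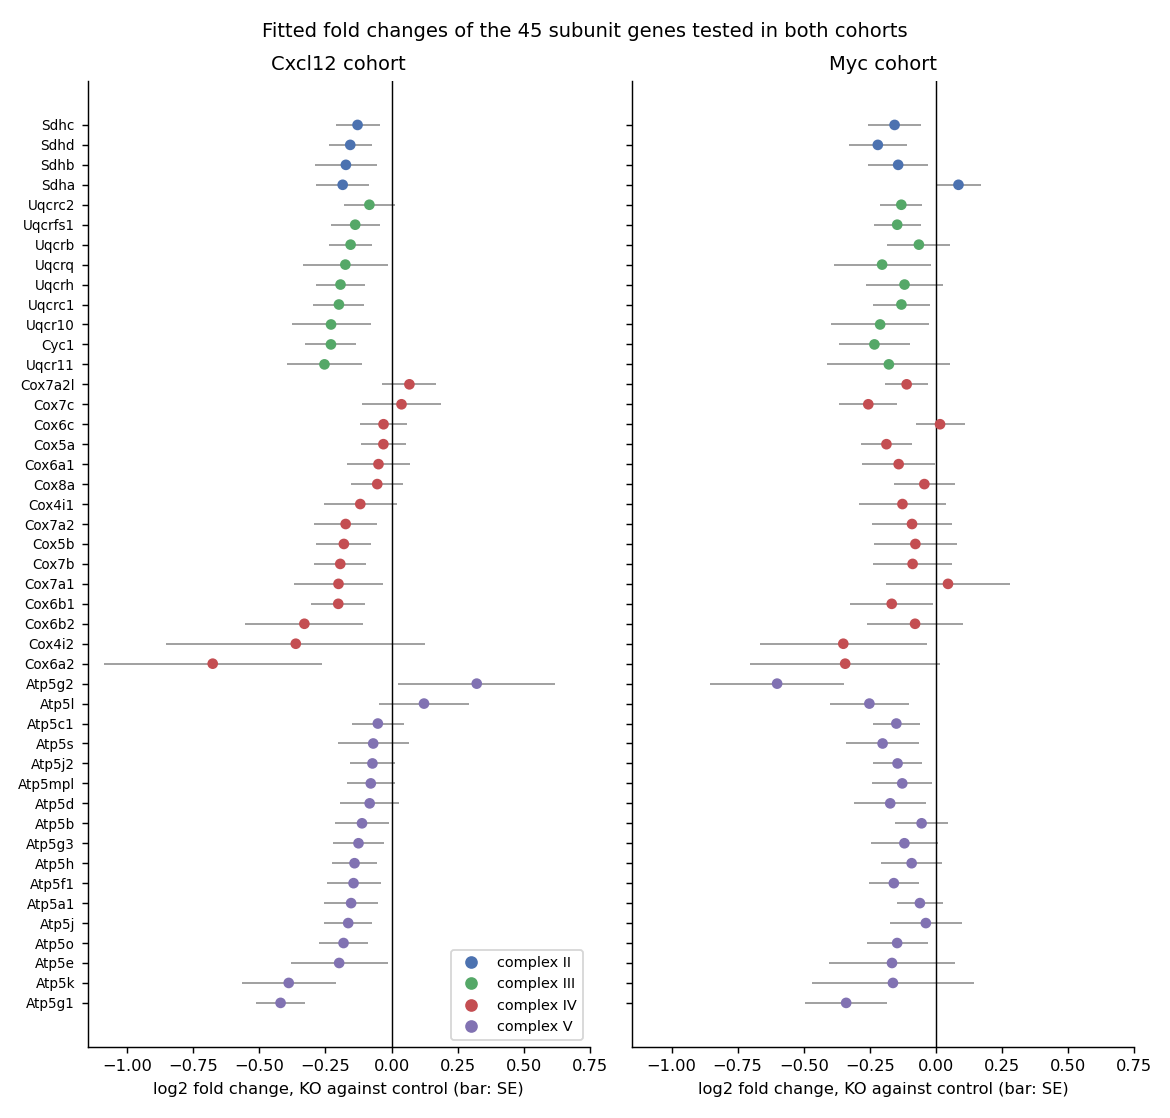
Fitted log2 fold changes (KO against control) with their SE for the 45 tested members in the Cxcl12 cohort (5 against 3 kidneys) and the Myc cohort (5 against 5), arranged by complex. The points lie mostly a little below 0, 41 of 45 and 42 of 45, and none passed the test. Under the correction for length and GC content the median of complex IV in the Cxcl12 cohort moves to -0.000686. With the replicate block added, which there rests on KO kidneys 1 to 3 and the controls, it moves to 0.11.

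Complex II was lower in fitted value for all 4 genes after Cxcl12 loss and for 3 of 4 after Myc loss, the exception being Sdha (chr13:74322254-74350280), the flavoprotein that oxidises succinate. Sdha measured 723, 630.5, 613, 692 and 650.4 CPM in Cxcl12 KO kidneys 1 to 5 and 756, 676 and 819 in the 3 controls. The groups overlapped, with KO kidneys 1 and 4 above the lowest control, and the difference did not pass the test (log2 fold change -0.18, SE 0.10, adjusted p = 0.462). Among the Myc kidneys Sdha measured 699.9, 670.0, 614, 641 and 541 CPM in KO kidneys and 603, 560.4, 581, 633 and 610.1 in controls. Here 4 of the 5 KO kidneys stood above the control median and KO kidney 5 below every control (log2 fold change 0.085, SE 0.084, adjusted p = 0.580). The KO effects on Sdha differed between cohorts by 0.26 (SE 0.12), with an unadjusted p of 0.0456 and an adjusted p of 0.426 by edgeR.

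Sdhd (chr9:50596357-50603812), a membrane anchor of complex II that holds the heme and the quinone site together with Sdhc, had the largest fitted change of complex II after Myc loss. It measured 179, 170.4, 141, 159 and 151 CPM in Myc KO kidneys and 157, 207, 162, 222 and 186 in Myc controls. KO kidneys 3 and 5 were lowest, yet the control kidneys spread over a wider range than the difference between groups (log2 fold change -0.22, SE 0.11, adjusted p = 0.256). In the Cxcl12 cohort it measured 186, 172, 168, 168 and 174 CPM in KO and 202, 182 and 195 in control kidneys, with only KO kidney 1 above a control (log2 fold change -0.16, SE 0.081, adjusted p = 0.442). The iron-sulfur subunit Sdhb had fold changes of -0.17 and -0.14 on the log2 scale in the Cxcl12 and Myc cohorts, and the anchor Sdhc -0.13 and -0.16. Neither passed the test.

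In complex III all 9 genes had fitted changes below 0 in both cohorts. The values ran from -0.25 (Uqcr11) to -0.084 (Uqcrc2) after Cxcl12 loss and from -0.23 (Cyc1) to -0.065 (Uqcrb) after Myc loss, with adjusted p-values between 0.355 and 0.745 and between 0.323 and 0.785 by edgeR. Cyc1 (chr15:76343523-76346260), the cytochrome c1 that passes electrons to cytochrome c, measured 284, 258, 302, 285 and 314 CPM in Cxcl12 KO kidneys and 327, 315 and 370.2 in Cxcl12 controls. All 5 KO kidneys lay below all 3 controls, with KO kidney 5 at 314 next to control 2 at 315 (log2 fold change -0.23, SE 0.096, adjusted p = 0.355). The Myc KO kidneys held 289.9, 275, 225, 262 and 228 CPM of Cyc1 and their controls 236, 312, 247, 378 and 333. The groups overlapped because controls 1 and 3 stood as low as the KO kidneys, and both are among the kidneys with few unmapped reads (log2 fold change -0.23, SE 0.13, adjusted p = 0.323).

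Uqcr11 (chr10:80402997-80406830), a small accessory subunit, showed how far the kidneys of a group could part. It measured 40.2, 40.7, 60.4, 52.2 and 57.2 CPM in Cxcl12 KO and 61.1, 53.4 and 63.9 in Cxcl12 control kidneys, and 48.5, 51.8, 30.5, 49.9 and 29.3 in Myc KO and 32.1, 53.8, 30.8, 62.4 and 58.7 in the Myc controls. The 6 kidneys with few unmapped reads held the 6 lowest values of all 18, whatever their genotype. Its tests did not pass in the Cxcl12 cohort (log2 fold change -0.25, SE 0.14, adjusted p = 0.471) or in the Myc cohort (log2 fold change -0.18, SE 0.23, adjusted p = 0.685). Uqcr10 (chr11:4701973-4704342), the highest member of complex III per kb, repeated that order with 129, 112, 173, 166 and 169 CPM in Cxcl12 KO kidneys and 167, 159 and 199 in their controls. The Myc KO kidneys held 159.8, 145, 100.4, 144 and 106 CPM of Uqcr10 and their controls 103, 176, 116, 184 and 179. The tests of Uqcr10 gave -0.23 and -0.21 on the log2 scale, with adjusted p-values of 0.542 and 0.523 by edgeR. Without the kidneys with few unmapped reads Uqcr11 was at -0.085 and Uqcr10 at -0.059 in the Cxcl12 cohort.

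The fitted changes of the other complex III genes lay within the same range. The core proteins Uqcrc1 and Uqcrc2 had log2 fold changes of -0.20 and -0.084 after Cxcl12 loss and of -0.13 and -0.13 after Myc loss. The Rieske protein Uqcrfs1 stood at -0.14 and -0.15, the hinge protein Uqcrh at -0.19 and -0.12, and the ubiquinone-binding subunits Uqcrb and Uqcrq at -0.16 and -0.065 and at -0.17 and -0.20. After the correction for length and GC content Uqcr10 and Uqcr11 were at 0.045 and 0.015 in the Cxcl12 cohort, so the direction of these short genes there rests on leaving the counts as they are.

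In complex IV, 13 of 15 tested genes had fitted changes below 0 in each cohort. The main isoform of subunit 4, Cox4i1, an early assembly subunit that also regulates the enzyme, measured 464, 438, 619, 554 and 629 CPM in Cxcl12 KO and 589, 528 and 639 in Cxcl12 control kidneys. KO kidneys 3, 4 and 5 lay within the range of the controls and KO kidneys 1 and 2, those with few unmapped reads, below it (log2 fold change -0.12, SE 0.14, adjusted p = 0.743). Without these 2 kidneys the log2 fold change of Cox4i1 was 0.025. Its level was 609, 565, 393, 532 and 406 CPM in the Myc KO kidneys and 396, 568, 469, 667 and 636 in their controls (log2 fold change -0.13, SE 0.16, adjusted p = 0.681). Cox6a1, the member of complex IV with the highest level per kb and the ubiquitous isoform of subunit 6a, measured 323, 306, 400.4, 347 and 389 CPM in Cxcl12 KO and 351, 332 and 410.4 in Cxcl12 control kidneys, and 389, 352, 279.6, 345 and 281 in Myc KO and 274, 355, 333, 441 and 415 in the Myc controls. Both comparisons of Cox6a1 overlapped, with log2 fold changes of -0.050 and -0.14 and adjusted p-values of 0.891 and 0.572 by edgeR. Without the 2 Cxcl12 KO kidneys with few unmapped reads it was 0.044 in that cohort.

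Among the other ubiquitous subunits, Cox6b1, which faces the intermembrane space, measured 181, 165, 214, 206 and 203 CPM in Cxcl12 KO and 231, 205 and 229.7 in Cxcl12 control kidneys (log2 fold change -0.20, SE 0.10, adjusted p = 0.436). Among the Myc kidneys Cox6b1 measured 204, 197, 137, 194 and 159.9 CPM in KO and 143, 223, 164, 239 and 234 in control kidneys, a fold change of -0.17 on the log2 scale. KO kidneys 3 and 4 of the Cxcl12 cohort reached the range of the controls, and the other 3 did not. Cox7a2, the liver-type isoform of subunit 7a, measured 147, 126, 183, 161 and 167 CPM in Cxcl12 KO and 176, 163 and 189 in Cxcl12 control kidneys, and 169, 169.7, 127, 165 and 126 in Myc KO and 112, 172, 139.7, 196 and 187 in the Myc controls. Its log2 fold changes were -0.17 and -0.091. Cox6b1 was at -0.11 and Cox7a2 at -0.061 in the Cxcl12 cohort without its kidneys with few unmapped reads. The ubiquitous small subunit Cox8a, at 279, 275, 330.0, 296 and 319 CPM in Cxcl12 KO and 297, 295 and 338 in Cxcl12 control kidneys, was among the members with the smallest changes (-0.054 and -0.044 in the Cxcl12 and Myc cohorts, the latter with 308, 309, 244, 302 and 245 CPM in KO and 239.7, 277, 265, 336 and 335 in control kidneys). Its sign turned under several settings, among them the correction for length and GC content (0.26 and 0.0014).

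The fitted changes above 0 were small as well. They belonged to Cox7a2l (0.067) and Cox7c (0.038) in the Cxcl12 cohort and to Cox7a1 (0.045) and Cox6c (0.015) in the Myc cohort. Cox7c, one of the genes with a skewed strand share, had the smallest p-value of complex IV in the Myc cohort (log2 fold change -0.26, SE 0.11, adjusted p = 0.202). The subunit of complex IV that bears its hemes is mitochondrially encoded. The nuclear subunits 5a and 5b gave -0.031 and -0.18 after Cxcl12 loss and -0.19 and -0.078 after Myc loss.

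Complex IV isoforms were compared as the share of the second isoform in the counts per kb of both, a ratio within a kidney that does not depend on library size. The share of Cox4i2, the hypoxia-responsive lung-type isoform, in Cox4i1 plus Cox4i2 averaged 0.200% in Cxcl12 KO and 0.234% in Cxcl12 control kidneys, and 0.261% in Myc KO and 0.313% in the Myc controls. Cox4i2 was thus hardly present 12 h after ischemia in any of the groups. Its own level was 0.748, 0.227, 0.856, 0.610 and 0.310 CPM in Cxcl12 KO, 0.996, 0.700 and 0.359 in Cxcl12 control, 0.554, 0.732, 0.412, 1.06 and 0.579 in Myc KO and 0.694, 1.31, 0.711, 0.616 and 0.949 in the Myc controls. The fold changes of Cox4i2 were the largest of complex IV in the Myc cohort and had wide errors (log2 fold change -0.35, SE 0.32, adjusted p = 0.538; in the Cxcl12 cohort -0.36, SE 0.49).

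Cox6a2, the heart and skeletal muscle isoform of subunit 6a, had the largest fitted change of complex IV in the Cxcl12 cohort. It measured 0.528, 1.02, 0.622, 0.999 and 0.682 CPM in Cxcl12 KO and 0.498, 1.40 and 1.85 in Cxcl12 control kidneys, where controls 2 and 3 were highest and control 1 lower than all KO kidneys (log2 fold change -0.68, SE 0.41, adjusted p = 0.512). Its share of Cox6a1 plus Cox6a2 averaged 0.230% against 0.348% (n = 5 and 3, exact two-sided permutation p = 0.214, adjusted over 8 shares 0.343). The 9 muscle markers summed to between 0.57 and 5.15 CPM in Cxcl12 KO kidneys and to 8.63, 10.6 and 26.0 in the 3 controls, without overlap. Control 3, highest in these markers, was also highest in Cox6a2, whereas control 1, above every KO kidney in them, was lowest in Cox6a2. Myc KO 2, highest of the Myc cohort in these markers (9.63 CPM), held 0.563 CPM of Cox6a2. The part of muscle RNA in the Cox6a2 difference was not tested. In the Myc cohort Cox6a2 measured 0.870, 0.563, 0.686, 0.745 and 0.231 CPM in KO and 0.848, 1.18, 0.508, 0.616 and 0.712 in control kidneys, and the share was 0.191% against 0.228%.

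Cox8b, the heart-type isoform of subunit 8 and a gene of brown fat, had the KO effects that lay furthest apart between cohorts, by 2.05 with an SE of 1.35 (adjusted p = 0.626 by edgeR). It measured 0.528, 0, 0.156, 0.333 and 0.0620 CPM in Cxcl12 KO, 0.553, 0.754 and 0.478 in Cxcl12 control, 0.237, 0.225, 0, 1.30 and 1.62 in Myc KO and 0, 0.131, 0.643, 0.554 and 0.949 in the Myc controls. The highest kidneys were Myc KO 5 and Myc KO 4. Myc KO 5 was also highest in Ucp1, the uncoupling protein of brown fat (13.3 CPM), and in Adipoq, the fat cell hormone adiponectin (7.98 CPM), while the 8 adipose markers summed to 443 CPM there and to between 105 and 294 in the others. The part of fat around the kidney in the values of Cox8b was not tested. The share of Cox8b in Cox8a plus Cox8b was 0.127% in Cxcl12 KO against 0.333% in Cxcl12 control kidneys (exact two-sided permutation p = 0.0714, adjusted 0.190) and 0.424% against 0.253% in the Myc cohort (exact p = 0.492).

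The 2 remaining pairs gave similar shares in KO and control kidneys. Cox7a1, the heart and muscle isoform of subunit 7a, made up 5.80% of Cox7a1 plus Cox7a2 in Cxcl12 KO and 5.85% in Cxcl12 control kidneys (difference -0.0593 percentage points, exact permutation p = 0.911), and 6.84% and 6.20% in the Myc cohort (exact p = 0.198). Its level was 4.36, 5.15, 6.53, 5.16 and 6.02 CPM in Cxcl12 KO, 6.97, 5.49 and 6.16 in Cxcl12 control, 6.64, 7.60, 4.62, 7.51 and 5.32 in Myc KO and 3.28, 7.01, 5.14, 7.33 and 8.13 in the Myc controls. Cox6b2, a testis isoform of subunit 6b, made up 1.72% and 1.84% of its pair in the Cxcl12 cohort (exact p = 0.714) and 1.69% and 1.62% in the Myc cohort (exact p = 0.698). Cox6b2 was low everywhere, with 6.51, 4.89, 5.21, 5.16 and 4.40 CPM in Cxcl12 KO, 9.35, 5.06 and 5.32 in Cxcl12 control, 5.46, 6.31, 4.02, 4.35 and 3.82 in Myc KO and 3.89, 4.32, 5.48, 5.30 and 6.23 in the Myc controls, and it was highest in Cxcl12 control 1.

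In complex V, 15 of 17 genes had fitted changes below 0 after Cxcl12 loss and 17 of 17 after Myc loss. Atp5b, the catalytic beta subunit and the highest of all members, measured 2633, 2444, 2574, 2557 and 2669 CPM in Cxcl12 KO and 2726, 2548 and 3051 in Cxcl12 control kidneys. After Myc loss it measured 2734, 2626, 2252, 2568 and 2225 CPM, and in the Myc controls 2304, 2543, 2410.2, 2953 and 2683. The groups overlapped in both cohorts and the changes were small, -0.11 and -0.054 with SEs of 0.10 and 0.10 (adjusted p = 0.667 and 0.786 by edgeR). The alpha subunit Atp5a1 gave -0.15 and -0.061, the central stalk genes Atp5c1, Atp5d and Atp5e (gamma, delta and epsilon) -0.052, -0.083 and -0.20 after Cxcl12 loss and -0.15, -0.17 and -0.17 after Myc loss.

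The peripheral stalk, which keeps the catalytic head from turning, is built among others from Atp5f1 (subunit b), Atp5h (d), Atp5j (F6) and Atp5o (OSCP). Their log2 fold changes lay between -0.18 (Atp5o) and -0.14 (Atp5h) after Cxcl12 loss and between -0.16 (Atp5f1) and -0.038 (Atp5j) after Myc loss. The small membrane subunits parted more. Atp5k (subunit e), which with subunit g helps the enzyme to form dimers, stood at -0.39 (SE 0.18, adjusted p = 0.384 by edgeR) after Cxcl12 loss and -0.16 (SE 0.31) after Myc loss. The Cxcl12 KO kidneys with few unmapped reads held 37.1 and 46.1 CPM of Atp5k, the other Cxcl12 KO kidneys 61.8 to 69.2 and their controls 66.8 to 80.4. Over all settings its log2 fold change in the Cxcl12 cohort ran from -0.55 to -0.076. Atp5l (subunit g) stood at 0.12 and -0.25, with the limit on its counts given above. Atp5j2 (subunit f) and Atp5mpl, a small associated protein, gave -0.072 and -0.079 in the Cxcl12 cohort and -0.15 and -0.13 in the Myc cohort, and Atp5s gave -0.070 and -0.20.

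Subunit c forms the rotating ring that carries protons through the membrane. The mature peptide is the same from 3 genes, Atp5g1 (chr11:96068852-96075670), Atp5g2 (chr15:102662864-102672352) and Atp5g3 (chr2:73908447-73911326), all on the minus strand of GRCm38, which differ in their targeting peptides and in their regulation. Atp5g1 and Atp5g2 held the largest fitted changes of complex V, so the bases before the RefSeq starts of these 3 genes (GRCm38.p6) are shown side by side, read 5′ to 3′ on the strand of the gene. Capitals mark matches to CACGTG (an E-box, the kind of element that Myc with its partner Max can bind), to CCAAT or its complement ATTGG, and to CGCATGCG (the centre of the NRF1 palindrome), and the overlapping pair in CCAATTGG is a match on each strand. The sequences cover chr11:96075641-96075881, chr15:102671098-102671297 and chr2:73911327-73911576, and the bases closest to the start are left out for Atp5g1 (9) and Atp5g2 (50), to shorten the part that GENCODE gives as exon. Of the bases printed, 30 of Atp5g1 and 30 of Atp5g2 still lie in GENCODE exons, and the E-box letters of Atp5g1 run into its exon. The RefSeq start of Atp5g2 lies 1305 bases inside the GENCODE gene, so that all its printed bases are within the gene and are not those upstream of its outermost start.
Atp5g1: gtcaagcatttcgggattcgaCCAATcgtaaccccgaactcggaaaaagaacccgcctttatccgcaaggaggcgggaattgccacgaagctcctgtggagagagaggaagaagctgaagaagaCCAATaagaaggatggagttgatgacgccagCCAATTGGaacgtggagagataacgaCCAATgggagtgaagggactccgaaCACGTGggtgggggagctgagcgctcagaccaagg
Atp5g2: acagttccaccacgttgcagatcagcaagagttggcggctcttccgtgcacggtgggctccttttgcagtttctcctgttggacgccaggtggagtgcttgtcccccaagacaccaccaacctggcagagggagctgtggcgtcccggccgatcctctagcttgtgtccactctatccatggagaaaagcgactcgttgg
Atp5g3: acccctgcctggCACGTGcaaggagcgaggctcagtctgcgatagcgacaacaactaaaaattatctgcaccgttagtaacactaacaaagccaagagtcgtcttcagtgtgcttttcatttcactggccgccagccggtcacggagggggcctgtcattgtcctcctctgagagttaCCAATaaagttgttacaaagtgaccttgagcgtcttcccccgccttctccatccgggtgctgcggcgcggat

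The E-box letters stood in the bases before the RefSeq starts of Atp5g1 and Atp5g3. They were not in this window of Atp5g2, which held CGCATGCG in the stretch that is not printed, and the bases before the GENCODE start of Atp5g2 were not searched. Such matches are letters only, and binding was not measured here. RefSeq windows of 300 bases, 250 before and 50 after the start, were found for 34 of the 48 members. Searched on both strands, CACGTG was in 3 of these 34 (8.82%; Atp5g1, Atp5g3 and Atp5l) and in 7.24% of all 27025 windows, CGCATGCG in 6 (17.6%; Atp5k, Atp5l, Atp5g2, Cox6a1, Uqcrc1 and Uqcr11) and in 1.91% of all, and CCGGAAGT, the core of ETS family sites, in 4 (11.8%; Uqcrh, Uqcr11, Atp5h and Cox8a) and in 4.00% of all. CCAAT was in 19 (55.9%) and in 37.9% of all windows, and AAGATGGCG, the start of a YY1 motif, in 1 (2.94%; Atp5j2) and in 1.49%. The member windows had a median GC content of 55.8%, against 52.7% for all windows.

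Atp5g3 carried nearly all of the subunit c counts. It measured 514, 457, 525, 479.6 and 536 CPM in Cxcl12 KO and 549, 500.1 and 589.6 in Cxcl12 control kidneys, and 538, 492, 419, 483 and 407 in Myc KO and 396, 506, 456, 616 and 569 in the Myc controls. Its fitted changes were -0.13 and -0.12, both well inside the spread of the kidneys (adjusted p = 0.606 and 0.604 by edgeR). Its share of the counts per kb of the 3 genes averaged 97.9% in Cxcl12 KO and 97.6% in Cxcl12 control kidneys, and 98.0% in Myc KO and 97.6% in the Myc controls. The exact two-sided permutation p was 0.0357 (adjusted over 8 shares 0.143) in the Cxcl12 cohort, where all KO kidneys lay above all controls by a narrow margin, and 0.0238 (adjusted 0.190) in the Myc cohort, where the groups overlapped. Neither passed after adjustment, and the shares of the 3 genes add up to the whole, so they are not independent.

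Atp5g1 had the smallest p-value of all members. It measured 21.0, 19.6, 21.2, 19.8 and 19.0 CPM in the 5 Cxcl12 KO and 27.2, 24.2 and 29.2 in the 3 Cxcl12 control kidneys. Every KO kidney lay below every control, and the 5 KO values lay close together (log2 fold change -0.42, SE 0.093, adjusted p = 0.106 by edgeR; adjusted p = 0.0127 by DESeq2). After Myc loss it measured 18.7, 18.4, 18.2, 21.4 and 16.1 CPM, and in the Myc controls 16.8, 22.0, 19.7, 30.4 and 29.0. Controls 4 and 5 were clearly higher than all others, and controls 1 and 3 lay among the KO kidneys (log2 fold change -0.34, SE 0.16, adjusted p = 0.227). The difference between the cohorts' KO effects was 0.075 (SE 0.20). Over all alternatives the adjusted p of Atp5g1 ranged from 0.0127 to 0.524 in the Cxcl12 cohort and its log2 fold change from -0.49 to -0.36.

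Within the subunit c genes, Atp5g1 made up 1.77, 1.86, 1.75, 1.80 and 1.55% in Cxcl12 KO kidneys and 2.14, 2.10 and 2.14% in Cxcl12 controls. The groups did not overlap, and the exact two-sided permutation p of 0.0179 is the smallest that the 56 splits of these kidneys allow, with 0.143 after adjustment over 8 shares. For the Myc kidneys the share was 1.52, 1.63, 1.89, 1.92 and 1.72% in KO and 1.84, 1.89, 1.87, 2.13 and 2.21% in control kidneys (exact two-sided permutation p = 0.0794, adjusted 0.317), with an overlap of the groups. The limit given above touches this share most, since 91.3% of Atp5g1 reads lay in the forward column and Atp5g1 has 19 near-copies. The reverse column held 642 Atp5g1 reads and the forward column 6777. The log2 fold change of Atp5g1 in the Cxcl12 cohort was -0.37 in the reverse column (adjusted p = 0.524 by edgeR), close to that from all reads. The share is smaller in the reverse column to begin with, and its difference there was -0.063 percentage points (exact permutation p = 0.393), against -0.383 from all reads and -0.70 from the forward column.

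Atp5g2 was the lowest of the subunit c genes and the member that went its own way. It measured 1.94, 1.63, 1.71, 1.33 and 1.24 CPM in Cxcl12 KO and 1.77, 0.861 and 1.14 in Cxcl12 control kidneys, where the KO mean was higher (log2 fold change 0.32, SE 0.30, adjusted p = 0.672). In Myc KO kidneys it measured 0.554, 0.789, 1.28, 1.30 and 0.848 CPM and in Myc control kidneys 1.54, 1.31, 1.83, 1.35 and 1.25, where the KO mean was lower (log2 fold change -0.60, SE 0.25, adjusted p = 0.198). The difference between the KO effects was -0.93 (SE 0.38, unadjusted p = 0.0247, adjusted p = 0.339 by edgeR). The gene had only 7 to 54 reads per kidney, which limits the precision of each value.

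**Figure D3:**
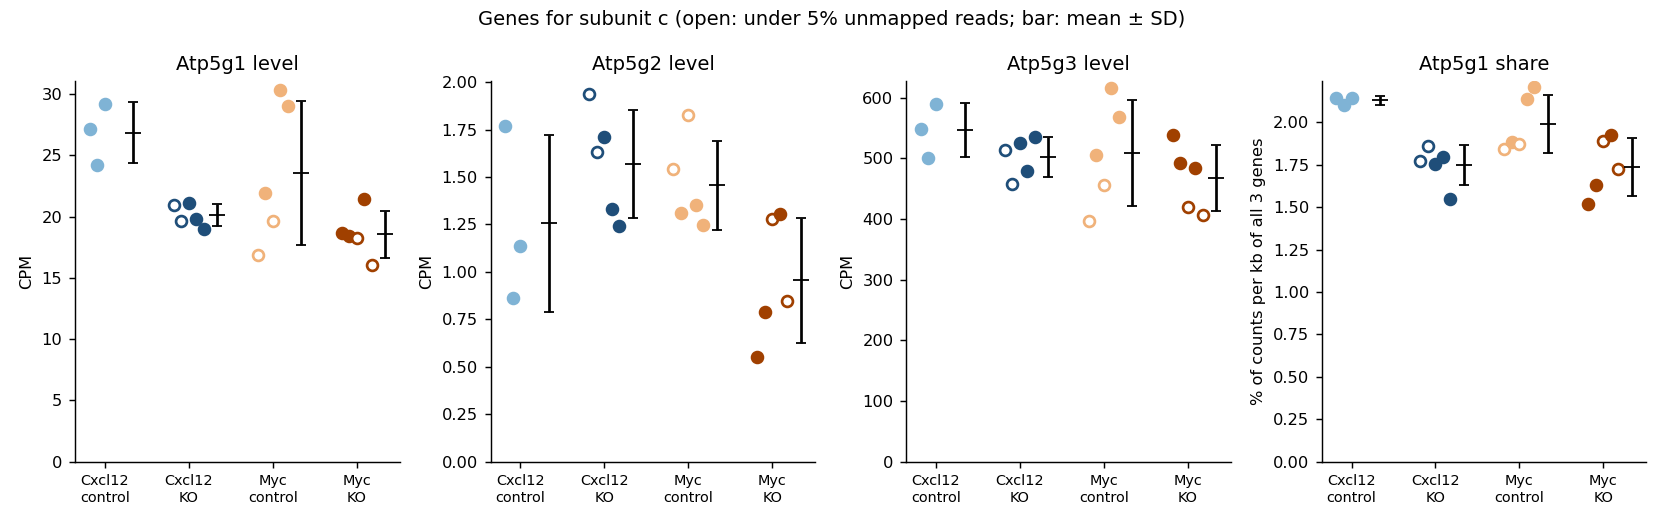
CPM of the 3 subunit c genes, and the share of Atp5g1 in the counts per kb of all 3 in percent, with 1 point for each of the 18 kidneys, open circles for kidneys with under 5% unmapped reads, and the mean ± SD of each group beside its points. Atp5g1 lies lower in all 5 Cxcl12 KO kidneys (19.0 to 21.2 CPM) than in the 3 controls (24.2 to 29.2 CPM), and Atp5g3 overlaps in both cohorts.

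The KO effects of the 2 cohorts were compared over all 18 kidneys. By edgeR 0 of 46 members were called for a difference, where 0.0692% of 15903 genes were, and 2 of 46 had an unadjusted p under 0.05 (Atp5g2 and Sdha), against 11.4% of all genes. DESeq2 called 0 members and 2.45% of all genes. The difference was below 0 for 19 of 46 members, against 51.0% of all genes, and its median by complex was -0.00463, 0.013, 0.035 and 0.00043 for II, III, IV and V. With a term for the kidneys with few unmapped reads, 40 of 46 members stood below 0 with a median of -0.097, so the even balance between the cohorts depends on that term.

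The members together took 1.13, 1.06, 1.19, 1.15 and 1.20% of gene reads in Cxcl12 KO kidneys 1 to 5 and 1.33, 1.23 and 1.37% in the 3 controls, without overlap. In that cohort 4.72% of all single genes had all KO kidneys below all controls. Of the Myc kidneys, the KO group gave 1.19, 1.16, 0.950, 1.10 and 0.960% and the controls 0.996, 1.21, 1.05, 1.36 and 1.27%, with an overlap. Whole complexes differed from kidney to kidney within a genotype. Expressed as the mean log2 level of a complex's tested members minus the mean of the cohort's controls, complex III stood at -0.23, -0.37, -0.073, -0.18 and -0.076 in Cxcl12 KO kidneys 1 to 5 and at -0.0098, -0.10 and 0.11 in the controls. KO kidneys 3 and 5 lay within the range of the controls. For the Myc kidneys complex III stood at 0.040, -0.00642, -0.38, -0.067 and -0.33 in the KO group and at -0.35, 0.13, -0.25, 0.28 and 0.19 in controls 1 to 5. Here KO kidneys 3 and 5 and controls 1 and 3, the 4 with few unmapped reads, formed the low end, and the other KO kidneys stood below the other controls.

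Complex V followed the same order, with -0.078, -0.094, -0.32, -0.061 and -0.29 in Myc KO kidneys and -0.34, 0.079, -0.12, 0.22 and 0.15 in the Myc controls. Complex IV stood at 0.041, 0.00344, -0.33, 0.012 and -0.34 after Myc loss and at -0.33, 0.12, -0.15, 0.15 and 0.20 in the controls. Complex II spread least in this cohort. Its means lay between -0.26 and 0.049 after Myc loss and between -0.17 and 0.22 in the controls, and Myc KO 1 at 0.049 reached Myc control 2 at 0.048. No p is given for such a mean, since the members were chosen with results of these kidneys known.

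**Figure D4:**
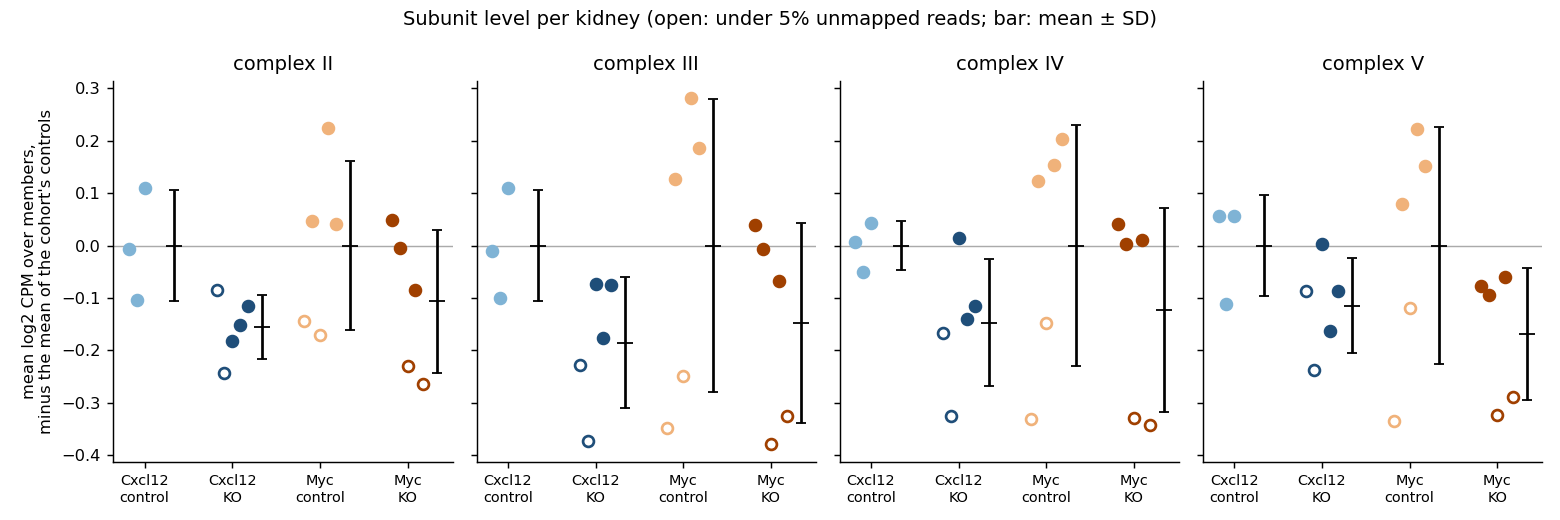
Mean log2 level of the tested members of each complex in each kidney, minus the mean of the controls of the same cohort, with open circles for kidneys with under 5% unmapped reads and the mean ± SD of each group beside its points. In the Myc cohort the 4 kidneys with open circles lie lowest in complexes III, IV and V whatever their genotype, and the other KO kidneys lie below the other controls in these 3 complexes.

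Within a genotype group, the kidneys with few unmapped reads had lower values for most members. The median difference over 45 members was -0.081 in Cxcl12 KO (31 of 45 lower), -0.28 in Myc KO (41 of 45) and -0.36 in Myc control kidneys (44 of 45), whereas all genes had a median of -0.0013, 0.0057 and 0.0066. Atp5k was furthest down in both Myc groups (-1.09 and -1.12), Atp5e, the epsilon subunit, in Cxcl12 KO (-0.70), and Atp5g2 was furthest up in all 3 groups (0.31, 0.29 and 0.34). In the Myc groups these differences were larger than the median fitted KO effect of -0.15. These kidneys also have the most gene reads, and what sets them apart was not tested.

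The members are short genes, with a median of 1675 exon bases against 4244 for all tested genes, and a GC content of 50.2% against 49.7%. In the kidneys with few unmapped reads, members under 1675 exon bases stood at -0.18, -0.40 and -0.42 in Cxcl12 KO, Myc KO and Myc control kidneys and the longer members at -0.025, -0.18 and -0.32. All genes of these length classes stood at -0.20, -0.22 and -0.27 for the short and at 0.015, 0.023 and 0.027 for the long. Short genes in general were thus lower in these kidneys. In the Myc groups the members stood lower than all genes of their length class, among the short as well as the long.

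**Figure D5:**
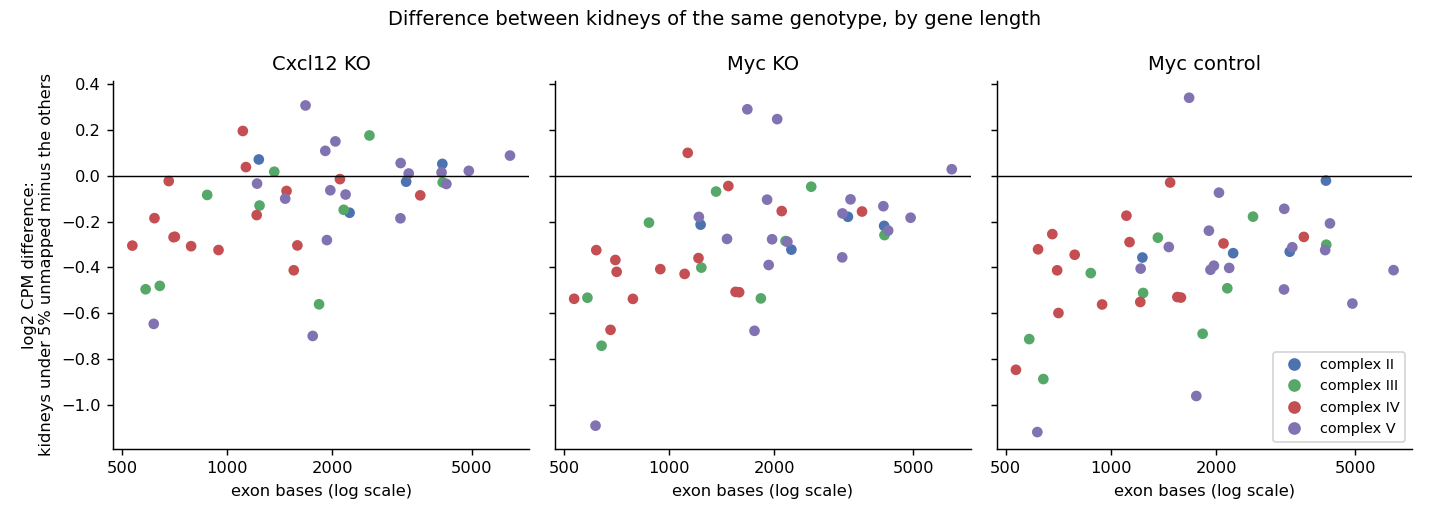
Difference between kidneys with under 5% unmapped reads and the other kidneys of the same group (log2) for each member against its exon length on a log axis, in the 3 groups that hold such kidneys. The members under 1675 exon bases have medians of -0.18, -0.40 and -0.42, and the longer ones -0.025, -0.18 and -0.32.

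Within the kidneys with 5% or more unmapped reads, 3 KO and 3 controls were left in each cohort. In the Cxcl12 cohort 35 of 45 members were then below 0 with a median of -0.11, and 6 of 45 had all KO kidneys below all controls (Atp5g1, Cyc1, Sdhd, Uqcrb, Uqcrc2 and Uqcrfs1), against 9.17% of all genes, and 0 above, against 9.90%. After Myc loss 43 of 45 members were below 0 with a median of -0.18, and 24 of 45 had all KO kidneys below all controls, against 15.6% of all genes. These 24 took in 8 of the 9 complex III genes, Sdhb, Sdhc and Sdhd of complex II, 5 of complex IV (Cox5a, Cox6b1, Cox7a2, Cox7b and Cox7c) and 8 of complex V. Sdha was the 1 member with all KO kidneys above all controls, against 14.2% of all genes. Among the medians and the members with values in every kidney, some not given so far shifted by over 1.5 times or turned in these subsets. They were the complex IV median (-0.061), Atp5g2 (0.16), Cox7a1 (-0.089) and Cox8a (0.0089) in the Cxcl12 cohort, as log2 values. In the Myc cohort they were Sdha (0.17), Cox6a2 (-0.21), Cox6b2 (0.032) and Cox7a1 (-0.035). Other members moved too. Atp5e held 103 and 103 CPM in Cxcl12 KO kidneys 1 and 2, 157 to 184 in the other Cxcl12 KO kidneys and 157 to 172 in their controls. For Uqcrq these values were 151 and 141, 195 to 230, and 195 to 233. For Atp5d they were 307 and 288, 341 to 377, and 337 to 388. No member was called by edgeR in either of these subsets, in which 80 and 8 genes were called in all.

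The members varied together from kidney to kidney. Over the 18 kidneys, the correlation between members of the deviations from the group mean had a median r of 0.70 over 990 pairs, a description that also reflects what the members share in length and library. It was highest within complex III (0.81) and lowest within complex IV (0.44), where the rare isoforms sit. Cyc1 had the highest median r with the other members, 0.86, and was thus most like the group as a whole. Atp5g2 had a median r of -0.30, Atp5s of -0.050, Cox6a2 of 0.068, Cox4i2 of 0.22, Cox7a2l of 0.30 and Sdha of 0.38.

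Partners of these complexes were read from lists chosen for the pathway. Complex I genes resembled the members, with 34 of 36 below 0 in the Cxcl12 cohort (median log2 fold change -0.18) and 35 of 36 in the Myc cohort (-0.13), and 0 called by edgeR. Of the assembly factors of complexes II to V, 28 of 34 were below 0 after Cxcl12 loss (-0.15; Cox20 -0.55 and Lyrm7 -0.50 were the largest changes) and 32 of 34 after Myc loss (-0.24; Coa3 -0.56 and Taco1 -0.52). EdgeR called 1 of them, Bcs1l, which inserts the Rieske protein into complex III and fell after Myc loss (log2 fold change -0.48, SE 0.095, adjusted p = 0.0297). DESeq2 called 6 of the 34 in the Myc cohort and 0 in the Cxcl12 cohort. Over all genes of the Myc cohort edgeR called 1.65% and DESeq2 9.03%. Bcs1l was named after its value was seen. The summed level of the assembly factors was 1059 to 1179 CPM in Cxcl12 KO and 1214 to 1236 in Cxcl12 control kidneys, and 909 to 972 in Myc KO and 984 to 1275 in Myc control kidneys, without overlap in either cohort. Of all single genes, 4.72% and 3.92% had all KO kidneys below all controls in the Cxcl12 and Myc cohorts. No such share was worked out for sums of a list. Of cytochrome c and the genes of ubiquinone synthesis, 8 of 12 were below 0 after Cxcl12 loss (-0.082) and 11 of 12 after Myc loss (-0.20). The subunits encoded by mitochondrial DNA went to the other side: the 2 tested, mt-Cytb and mt-Co1, stood at 0.24 and 0.17 after Cxcl12 loss and at 0.085 and 0.084 after Myc loss, and neither passed the test. The sum of this list was highest in the kidneys with few unmapped reads of each group. It was 42020 and 34143 CPM in such Cxcl12 KO kidneys, 29673 to 33233 in the other Cxcl12 KO and 28790 to 30470 in Cxcl12 controls. In Myc KO it was 34080 and 36970 against 27569 to 32049, and in Myc controls 30959 and 31997 against 28787 to 29366. The other 4 did not pass the low count filter and have no fold change here. Reads that map to several places are left out, so this does not give the level of these transcripts.

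Regulators of respiratory genes showed no common direction. Of 16, 9 were below 0 after Cxcl12 loss (median -0.083), with the largest changes in Esrra (-0.46), an orphan nuclear receptor, and Ppargc1a (-0.34), its coactivator. After Myc loss 8 of 16 were below 0 (-0.014), with the largest changes in Perm1 (0.49) and Tfb1m (-0.46), a mitochondrial rRNA methyltransferase. None passed edgeR's test, and DESeq2 called 1 in the Cxcl12 cohort and 0 in the Myc cohort, against 2.49% and 9.03% of all genes.

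Cell type markers differed between the groups to differing degrees. In the Cxcl12 cohort 16 of 16 proximal tubule markers were below 0 (median -0.25), their sum running from 15736 to 19431 CPM in KO and from 16161 to 23533 in control kidneys. Genes of tubular injury had a median of 0.51 there, and their sum, 14172 to 22172 CPM in KO and 11355 to 12857 in control kidneys, did not overlap. All KO kidneys lay above all controls for 4.96% of all single genes of that cohort. After Myc loss 4 of 16 proximal tubule markers were below 0 (0.090), with sums of 13001 to 20957 CPM in KO and 13941 to 21235 in control kidneys, and the injury genes had a median of 0.26, with sums of 16714 to 26097 and 14389 to 22974. No gene of these lists passed edgeR's test. DESeq2 called 3 and 1 of the proximal tubule markers and 2 and 0 of the injury genes in the Cxcl12 and Myc cohorts. It called 2.49% and 9.03% of all genes there. Of the 11 leukocyte markers 8 were tested, with medians of 0.31 and 0.22. The part of these cell types in the members' values was not tested.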

How the data were processed

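RNA of 18 whole kidneys had been sequenced. Per the submitters' processing notes, reads were trimmed with Trimmomatic 0.32 and aligned with STAR 2.4.0, and per the methods of the study the genome was GRCm38; the annotation release behind the counts is not given in the sources used here. For each kidney the authors deposited counts of reads per gene, not normalized, in 3 columns (unstranded, forward, reverse), of which the unstranded column was used. Reads that map to several places or to no gene, or that are ambiguous, are summary lines of these files and stayed out of library sizes and tests. IDs were named through GENCODE vM21 (45143 of 45706 found).

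Counts were filtered with filterByExpr, scaled by TMM and tested per cohort with edgeR 4.0.16 (R 4.3.3), glmQLFit and glmQLFTest, with Benjamini-Hochberg adjustment over all genes tested. The test was checked on simulated data. The difference between KO effects was fitted as an interaction over all 18 kidneys. The SE is the log2 fold change divided by the square root of F. CPM per kidney use TMM factors of all 18 kidneys, and fold changes come from the cohort fits. Isoform shares used counts per kb of exon and exact two-sided permutation tests. Copies were searched with BLAST 2.17.0 among transcripts. DESeq2 1.42.0, limma voom 3.58.1 and the settings given in the closing section were alternatives. Depth was 12918220 to 29749500 gene reads per kidney, so genes of under 10 reads carry large counting error.

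The members, the gene lists and the tests were chosen with earlier results of these data known. Values in every kidney are given for any called member, for the highest and the most changed tested member of each complex and cohort, for the largest interaction and for the isoforms; the list genes named are the 2 with the largest change. Kidneys with under 5% unmapped reads were set apart from the mapping summary; the labels name no batch, although the methods of the study mention a calibration for batch effects that was not repeated here. Marker lists not described in the report had medians of -0.26 and 0.12 (loop, distal and collecting duct, 12 tested), 0.084 and 0.24 (glomerulus and endothelium, 10), -0.20 and 0.19 (stroma, 6), -0.71 and 0.47 (adipose, 6), -3.16 and 0.98 (muscle, 4 and 1 tested) and 0.21 and 0.28 (adrenal gland, 1) in the Cxcl12 and Myc cohorts, with 0 genes called by edgeR.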

Additional observations from a re-analysis of the deposited data

How the results depend on the processing

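Under every setting other than DESeq2 no member was called in any comparison, and DESeq2 called 1, Atp5g1 in the Cxcl12 cohort. The calls over all genes varied more: 0 in the Cxcl12 cohort with edgeR but 355 with DESeq2, 214 with no filter on low counts and 123 with a term for the kidneys with few unmapped reads, 246 in the Myc cohort but 1139 with DESeq2 and 18 with the replicate block, and 11 for the difference between cohorts but 314 with DESeq2. Leaving out 1 kidney gave 0 to 15 calls in the Cxcl12 cohort and 21 (without Myc KO 2) to 877 (without Myc control 3) in the Myc cohort, with 0 members called each time. The members' median stayed below 0 in both cohorts under all settings, between -0.21 with library totals and -0.054 with the block and the correction in the Cxcl12 cohort. For the Myc kidneys it lay between -0.22 (without Myc control 1) and -0.054 (in the 4 kidneys with under 5% unmapped reads).

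Complex IV of the Cxcl12 cohort was the complex that depended most on the processing. Its median was -0.23 with library totals, -0.12 in the forward column, -0.055 with the term for few unmapped reads, -0.061 in the kidneys with 5% or more unmapped reads, -0.000686 with the correction for length and GC content and 0.11 with this correction and the replicate block, and it lay between -0.24 (without Cxcl12 KO 3) and -0.085 (without Cxcl12 control 1) when 1 kidney was left out. The block sets only KO kidneys 1 to 3 against the 3 controls there, as KO kidneys 4 and 5 share their numbers with no control. Complex III of that cohort was at -0.020 with the correction and the block. The cause was not tested.

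Of the members with values in every kidney, single genes turned their sign in the Cxcl12 cohort as follows. With the correction for length and GC content Uqcr10 was at 0.045, Uqcr11 at 0.015, Cox6a1 at 0.22, Cox6b1 at 0.049, Cox7a1 at 0.11, Cox7a2 at 0.030 and Cox8a at 0.26. With the correction and the replicate block Sdhd was at 0.066, Uqcr10 at 0.12, Uqcr11 at 0.11, Cox6a1 at 0.34, Cox4i2 at 0.16, Cox6b1 at 0.15, Cox6b2 at 0.11, Cox7a1 at 0.27, Cox7a2 at 0.11 and Cox8a at 0.40. Cox8a was at 0.000823 in the reverse column. With the term for few unmapped reads Cox6a1 was at 0.050, Cox4i1 at 0.031 and Cox8a at 0.015, and in the kidneys with 5% or more unmapped reads they were at 0.044, 0.025 and 0.00889. With 1 kidney left out, Cox6a1 ranged from -0.11 to 0.041, Cox4i2 from -0.66 to 0.0049, Cox6b2 from -0.49 to 0.012 and Cox8a from -0.092 to 0.0086. After Myc loss Cox8a was at 0.0014 with the correction and 0.0032 with the block added, Cox6b2 at 0.015 in the forward column and 0.032 in the kidneys with 5% or more unmapped reads, Cox7a1 at -0.035 in the latter, and Sdha at -0.029 and Cox7a2 at 0.017 in the kidneys with under 5%. With 1 kidney left out, Cox6b2 ranged from -0.20 to 0.0064, Cox7a1 from -0.12 to 0.17 and Cox8a from -0.11 to 0.013. Other members also turned under some setting. In the Cxcl12 cohort these were Uqcrb, Uqcrfs1, Uqcrq, Cox5a, Cox6c, Cox7a2l, Cox7c, Atp5c1, Atp5d, Atp5e, Atp5j2, Atp5mpl (up to 0.23) and Atp5s. In the Myc cohort they were Uqcrb (up to 0.085), Cox5b, Cox6c, Cox7b, Atp5e, Atp5j, Atp5l and Atp5mpl.

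Isoform shares, in percentage points of KO minus control, turned as well. In the Cxcl12 cohort Cox4i2 was at 0.021 in the forward column and Cox7a1 at 0.098, Cox6b2 at 0.037 and Cox7a1 at 0.029 with the replicate block, and Atp5g3 at -0.013 in the reverse column. With 1 kidney left out they ranged from -0.095 to 0.015 (Cox4i2), from -0.32 to 0.21 (Cox6b2) and from -0.30 to 0.28 (Cox7a1). In the Myc cohort Cox6b2 was at -0.016 in the reverse column and ranged from -0.031 to 0.19, and Cox8b ranged from -0.0042 to 0.28, when 1 kidney was left out.

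The replicate numbers of KO and control kidneys do not mark shared animals. Same-numbered kidneys had correlations of their deviations of 0.097, 0.14 and -0.035 in the Cxcl12 cohort and of -0.16, 0.27, 0.38, -0.086 and -0.13 in the Myc cohort, and with the replicate block 0 members were called in either. Depth limits the isoforms with few reads, Cox4i2 (5 to 21 per kidney), Cox6a2 (6 to 31), Cox8b (0 to 42) and Atp5g2 (7 to 54), most.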
